A study of Mus musculus with 8 samples.

Results

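Of the Notch pathway, 10 genes were followed across the cell populations of the mouse liver, with the portal tract as the main place of interest. They were the ligand genes *Jag1*, *Jag2*, *Dll1* and *Dll4*, the receptor genes *Notch1*, *Notch2*, *Notch3* and *Notch4*, and the target genes *Hey1* and *Heyl*. The members were taken by gene symbol, 10 of the 46517 genes in the count table, and all 10 symbols matched 1 row each. The libraries came from 3491 single liver cells of healthy adult mice, sorted by flow cytometry into plates and sequenced by Smart-seq2, a full-length method without molecular identifiers. Mice were wild type or carried the fluorescent reporters Pdgfrb-GFP, Pdgfra-H2bGFP, Cspg4-dsRED, Acta2-GFP or Cldn5-GFP, of which the 4 GFP reporters served, with antibodies, to sort mesenchymal and endothelial cells, and no group had been treated. The 8 samples were the male and the female pool of epithelial (parenchymal), endothelial, immune and mesenchymal cells. The labels did not tie cells to mice, so a sex pool was the unit of replication, with at most 2 sums per population. The p-values measure the spread between these pools only, which differ in sex, plates and mice at once. The 2 pools of a whole class also differ in the mix of cells sorted. Populations #p1, #p3, #p4, #p5, #i2, #i5, #m7c, #m8 and #m10 had at least 5 cells in the male pool alone and #i6 and #i7 in the female pool alone, so each entered the tests as 1 sum whose spread was taken from the other populations.

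Notch receptors and their ligands both sit in the cell membrane, so signalling passes between cells that touch. Binding of a Jagged or Delta-like ligand lets proteases release the intracellular domain of the receptor, which enters the nucleus and, together with the DNA-binding protein RBPJ, switches on genes such as those of the Hes and Hey families of transcriptional repressors. In the liver the pathway is known for bile duct formation, for which *JAG1* and *NOTCH2* are the genes mutated in Alagille syndrome, and for arterial identity and the maturation of vascular smooth muscle. Transcript levels of a ligand and of a receptor in neighbouring populations do not measure signalling.

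The genes lie on 5 mouse chromosomes in GRCm38. *Jag1* is at chr2:137081456-137116644 (minus strand), *Dll4* at chr2:119325784-119335962 (plus), *Notch1* at chr2:26457903-26516663 (minus), *Notch2* at chr3:98013527-98150361 (plus) and *Hey1* at chr3:8663359-8667256 (minus). *Heyl* is at chr4:123233556-123249875 (plus), *Jag2* at chr12:112907819-112929776 (minus), *Dll1* at chr17:15367354-15376872 (minus), *Notch3* at chr17:32120820-32166852 (minus) and *Notch4* at chr17:34564268-34588503 (plus). All are protein coding, and counts were taken over exons. Reads of *Dll4*, *Dll1*, *Notch1* and *Notch3* cannot be told apart from those of the antisense genes *Gm14207*, *A930024N18Rik*, *Gm13568* and *Gm17276* where exons overlap, because the libraries carry no strand. Those 4 antisense genes held 11.8%, 11.6%, 7.46% and 4.94% of the counts of their respective pairs. *Notch2* also shares exon bases with *Gm42820* on the same strand, and *Notch1* with *0610009E02Rik* on the other, for which no counts are given.

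Cells had between 47063 and 1128421 counts, and the median per class and pool ran from 88932 in female epithelial cells to 321121 in female mesenchymal cells. All 339 female mesenchymal cells came from 1 plate, so sex and plate cannot be told apart there. Levels are given as CPM, the share of the summed counts scaled to 1000000, in a population within a pool, male pool first, and CPM divided by exon length in kilobases is used wherever 2 genes are compared. Populations are the clusters deposited by the authors and keep their names, with #p for parenchymal, #e for endothelial, #i for immune and #m for mesenchymal clusters, and c for those from the finer clustering. The portal tract was represented by 7 of them: cholangiocytes (#p2, 157 male and 37 female cells), portal vein endothelium (#e2c, 63 and 51), the capillaries of the peribiliary plexus (#e5c, 5 and 9), arterial smooth muscle (#m2c, 127 and 109), portal vein smooth muscle (#m8c, 60 and 12), portal fibroblasts (#m1, 88 and 93) and peribiliary fibroblasts (#m4, 89 and 9). Marker genes matched the kind of cell in each name. All 5 cholangiocyte markers passed 10 CPM in #p2, all 7 endothelial markers in #e2c and #e5c, all 6 mural markers in #m2c and #m8c and all 5 fibroblast markers in #m1 and #m4. These lists do not tell #e2c from #e5c, #m2c from #m8c or #m1 from #m4, whose finer names are those of the authors. There were 3 points of doubt. The hepatocyte markers summed to 4340 CPM in #p2 beside 7558 CPM for the cholangiocyte markers, #m8c also held 7094 CPM of fibroblast markers beside 8997 CPM of mural markers, and the deposited annotation calls 71 of the 72 #m8c cells venous smooth muscle, a name it shares with #m9c. The part of these other transcripts in the results was not tested.

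The deposited clusters come from these very transcriptomes, and so part of any difference between clusters is built in. Differences were tested with edgeR's quasi-likelihood test on summed counts, across all genes at once, and a gene was called at an adjusted p below 0.05 and a change of at least 2-fold. Shares of all genes given beside counts of members are of such calls. No share of all genes was taken at an unadjusted p below 0.05, so counts of members at that limit have no background. A reference made of several kinds of cell is the mean of their log2 levels with each kind counted equally, so a population near 0 pulls that mean down strongly and the fitted size then depends on the prior count.

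**Figure D1:**
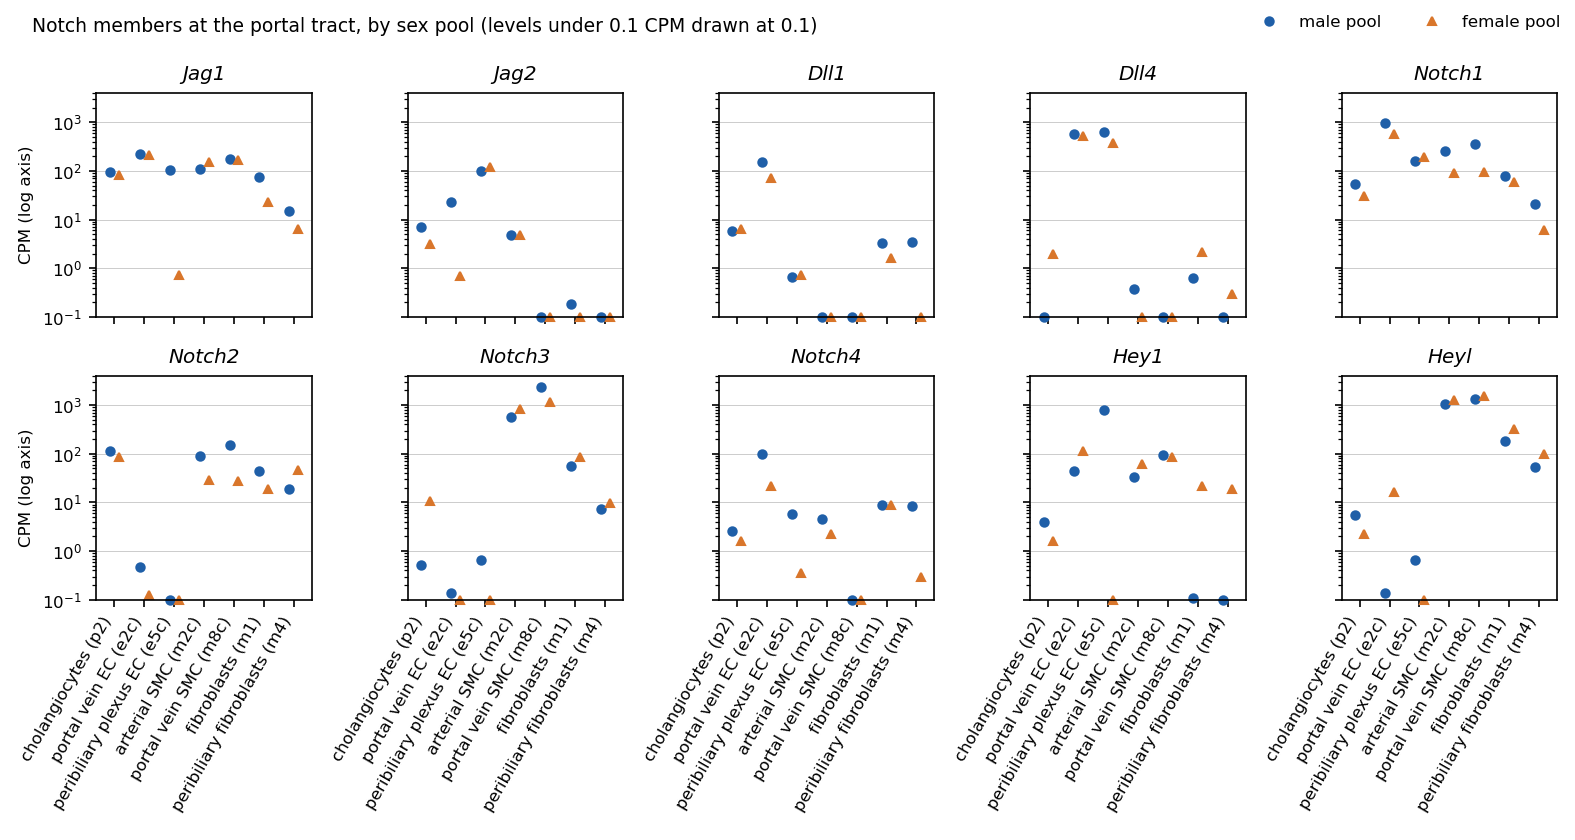
Levels of the 10 Notch genes in the 7 portal tract populations, as CPM on a log axis, with the male pool as a circle and the female pool as a triangle. *Jag1* lies between 82.0 and 218 CPM in cholangiocytes, portal vein endothelium and both smooth muscle populations, whereas *Dll4* is high only in the 2 endothelial populations among these 7, and *Notch3* and *Heyl* are highest in the 2 smooth muscle populations.

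Among the ligands, *Jag1*, the Jagged ligand of bile duct development, was the one present across the portal tract. Its level was 218 and 209 CPM in portal vein endothelium (#e2c), 178 and 168 CPM in portal vein smooth muscle (#m8c), 110 and 150 CPM in arterial smooth muscle (#m2c) and 94.1 and 82.0 CPM in cholangiocytes (#p2). The pools of these 4 populations did not overlap from one to the next, and they held the 4 highest *Jag1* levels of the 34 populations with at least 10 cells. Portal fibroblasts (#m1) had 73.5 and 22.6 CPM, peribiliary fibroblasts (#m4) 15.1 and 6.27 CPM and venous smooth muscle (#m9c) 84.7 and 25.1 CPM, with the male pool of #m9c inside the range of cholangiocytes. *Jag1* counts were seen in 71.1% of #e2c cells (95% exact binomial interval 61.8 to 79.2), 72.2% of #m8c cells (60.4 to 82.1), 55.9% of #m2c cells (49.3 to 62.4) and 46.9% of #p2 cells (39.7 to 54.2), and no single cell held more than 8.74% of the counts of any of the 4. These intervals cover counting error only. The shares depend on depth and on the limit of detection: thinned to 50000 counts per cell they were 64.6%, 63.9%, 42.8% and 32.8%, and with at least 20 counts of the gene required they were 57 of 114, 30 of 72, 62 of 236 and 35 of 194 cells. Of 340 shares over all members and populations, 177 moved beyond their interval with thinned cells and 272 with the limit of 20 counts.

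With edgeR as reported, *Jag1* was not called in any of the 4 kinds of portal tract cell. Against the mean of the other 3 kinds the log2 fold change was 0.14 ± 0.94 (SE) for cholangiocytes (95% interval -1.88 to 2.16, adjusted p = 1.0), 0.50 ± 0.74 for endothelium (-1.09 to 2.09, adjusted p = 0.759), 1.51 ± 0.72 for mural cells (-0.04 to 3.05, adjusted p = 0.291) and -2.15 ± 0.85 for fibroblasts (-3.96 to -0.33, adjusted p = 0.164). In fibroblasts *Jag1* was called lower with DESeq2 (log2 fold change -2.25), with no filter on low counts (-2.13) and without sums of under 10 cells (-2.27). The intervals are wide enough to hold differences of several fold in either direction for cholangiocytes. For endothelium they hold several fold higher and just over 2-fold lower. In the peribiliary plexus (#e5c) *Jag1* stood at 103 CPM in the male pool and 0.71 CPM in the female pool, and 1 cell held 83.9% of its counts.

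*Jag2*, the other Jagged ligand, was found mainly in the peribiliary plexus, at 101 and 121 CPM. Only 2 of the 14 #e5c cells held a count of it, and 1 of them held 68.7% of all its counts. It was at 6.99 and 3.20 CPM in cholangiocytes, at 4.82 and 4.74 CPM in arterial smooth muscle, and at 0 in #m8c and #m4. The 23.1 CPM of the male #e2c pool came to 96.8% from 1 cell, and the female #e2c pool had 0.68 CPM. *Jag2* was higher in portal endothelium than in the mean of the other 3 kinds (log2 fold change 6.97 ± 1.28, adjusted p = 0.0033), a call carried by these few cells.

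The Delta-like ligands were endothelial. *Dll4*, the ligand of arterial and capillary endothelium, had 576 and 510 CPM in #e2c and 618 and 373 CPM in #e5c, against at most 2.14 CPM in any pool of the other 5 portal tract populations. Portal vein and peribiliary endothelium overlapped each other and no other portal tract population. A *Dll4* count was seen in 70.2% of #e2c cells (60.9 to 78.4) and in 57.1% of #e5c cells (28.9 to 82.3). In #e5c 1 female cell held 51.8% of the *Dll4* counts, 1035 of the 1047 in its pool. In cholangiocytes, set beside as cells assumed and not tested to lack the gene, a *Dll4* count was seen in 4 of 157 male cells (2.55%) and 12 of 37 female cells (32.4%), at 0.09 and 1.92 CPM. Median depth was 195173 and 316351 counts per cell in the #e2c pools, 227800 and 300031 in the #e5c pools and 341237 and 88932 in the cholangiocyte pools. *Dll1*, the other Delta-like ligand among the members, had 149 and 70.6 CPM in #e2c but 0.65 and 0.71 CPM in #e5c, 5.73 and 6.41 CPM in cholangiocytes, where 1 cell held 86.2% of the counts, and 1 count in all 236 cells of #m2c.

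Of the 10 members, 7 were called in portal endothelium against the other 3 kinds, where 18.2% of all 18604 genes tested were called. *Dll4* (log2 fold change 10.48 ± 1.07, adjusted p = 2.87e-05), *Jag2*, *Dll1* (3.98 ± 1.10, adjusted p = 0.0245) and *Notch1* (2.47 ± 0.48, adjusted p = 0.00317) were higher. *Notch2* (-10.47 ± 1.49, adjusted p = 0.000501), *Notch3* (-8.66 ± 1.06, adjusted p = 0.000121) and *Heyl* (-6.00 ± 1.06, adjusted p = 0.00179) were lower. The *Notch2* and *Notch3* values rest on 9 and 3 counts in the 128 endothelial cells, and for *Notch3* the ratio of summed CPM was 0.000235 with a counting interval of 4.84e-05 to 0.000686. With sums of under 10 cells left out, which removes #e5c, 8 members were called. *Dll4*, *Jag2*, *Dll1*, *Notch1*, *Notch2* and *Notch3* kept their calls, *Heyl* lost its call, and *Notch4* (4.82) and *Hey1* (3.70) gained one. With sums per plate *Dll1* (3.72) and *Notch1* (1.68) did not pass, and with thinned cells *Dll1* (3.18) did not.

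**Figure D2:**
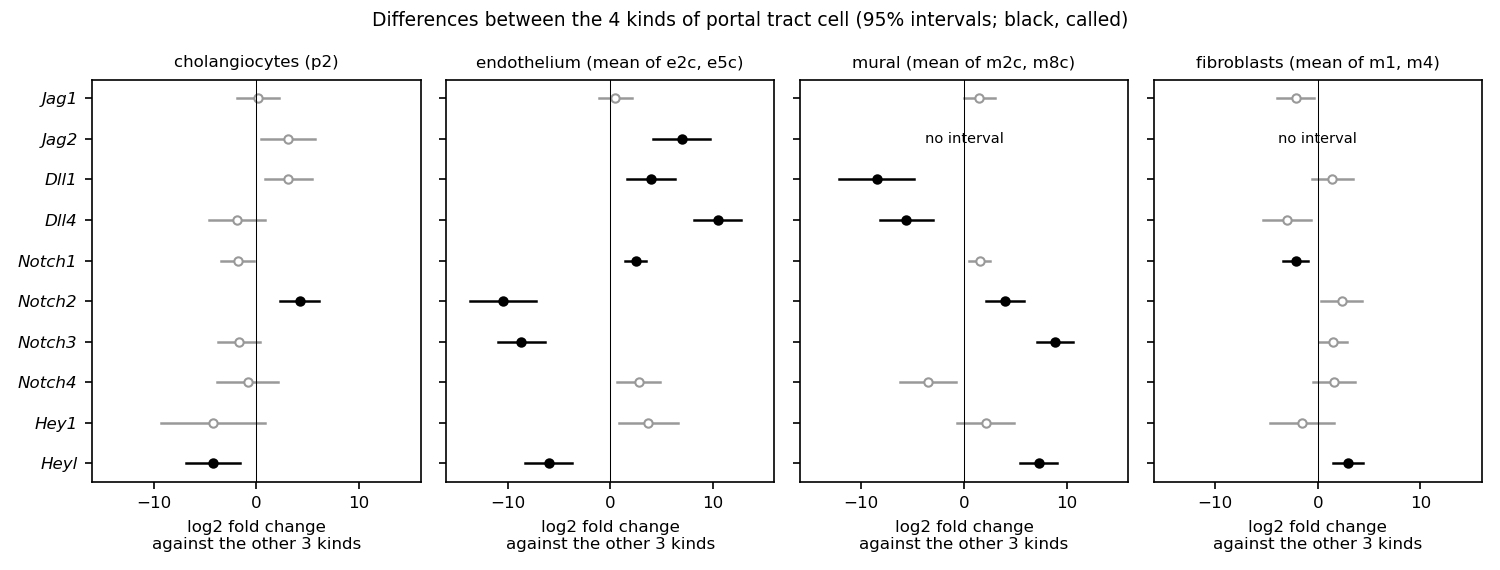
Log2 fold changes of the 10 Notch genes in each kind of portal tract cell against the mean of the other 3 kinds, with 95% intervals from the edgeR fit, and black points for called genes. *Jag1* is called in none of the 4 panels of this edgeR fit, endothelium has 7 black points and cholangiocytes have 2, and "no interval" marks 2 fits of *Jag2* without a usable standard error.

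The receptors split by cell kind more clearly than *Jag1* did. *Notch1*, the receptor of endothelial and many other cells, had 971 and 580 CPM in #e2c, 363 and 96.0 CPM in #m8c, 262 and 90.7 CPM in #m2c, 156 and 191 CPM in #e5c, 79.5 and 59.9 CPM in #m1, 53.4 and 31.1 CPM in #p2 and 20.5 and 5.97 CPM in #m4. Only #e2c stood clear of all others in both pools, and in #e5c 1 female cell held 65.6% of the counts, 510 of the 538 in its pool. It was detected in 96.5% of #e2c cells (91.3 to 99.04).

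*Notch2*, the receptor tied to bile duct formation, had 117 and 85.4 CPM in cholangiocytes, where 69.6% of cells (62.6 to 76.0) held a count. In #m8c it stood at 149 and 27.2 CPM, in #m2c at 91.1 and 28.8 CPM, in #m1 at 44.7 and 18.7 CPM and in #m4 at 19.1 and 46.9 CPM. The cholangiocyte pools lay inside the range of the #m8c pools, so *Notch2* did not separate cholangiocytes from smooth muscle. In endothelium it was at 0.48 and 0.12 CPM (#e2c) and at 0 in #e5c. There 0 of 14 cells held a count, which by the limit of 3 counts allows a share of cells with a count of up to 21.4% (exact binomial upper bound 23.2%) and does not bound the share of cells expressing the gene.

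*Notch3*, the receptor of vascular smooth muscle, had the highest level per kilobase of the 4 receptor genes (265 CPM per kb in #m8c), at 2372 and 1163 CPM in #m8c and 563 and 830 CPM in #m2c. Portal fibroblasts followed with 56.6 and 84.6 CPM, and #m4 (7.45 and 9.86 CPM), #p2 (0.52 and 10.7 CPM), #e2c (0.14 and 0 CPM) and #e5c (0.65 and 0 CPM) had little. The 2 smooth muscle populations did not overlap any other portal tract population, nor each other. Counts were seen in 95.8% of #m8c cells (88.3 to 99.1) and in 84.3% of #m2c cells (79.0 to 88.7). *Notch4*, a receptor of endothelium, reached 100.5 and 21.7 CPM in #e2c and stayed at or below 8.97 CPM in every pool of the other 6 populations.

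Among the targets, *Heyl* followed the smooth muscle populations, with 1337 and 1552 CPM in #m8c and 1046 and 1277 CPM in #m2c. It was at 183 and 328 CPM in #m1 and 53.2 and 101 CPM in #m4, and at most 5.39 CPM in cholangiocytes, where 1 cell held 84.9% of the counts. *Hey1* was spread more widely and less evenly. It had 92.8 and 85.9 CPM in #m8c, 44.0 and 112 CPM in #e2c, and 34.04 and 61.4 CPM in #m2c, but 777 and 0 CPM in the 5 male and 9 female cells of #e5c. Portal fibroblasts had 0.11 and 21.6 CPM and cholangiocytes 3.88 and 1.60 CPM of *Hey1*. Cholangiocytes thus held *Notch2* and *Jag1* with *Hey1* and *Heyl* at or below 5.39 CPM in either pool. This does not hold for every target, as *Sox9*, described below, was high there.

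In mural cells 5 of the 10 members were called against the other 3 kinds, where 7.10% of all genes were. *Notch3* (log2 fold change 8.87 ± 0.80, adjusted p = 1.7e-05), *Heyl* (7.28 ± 0.84, adjusted p = 0.000112) and *Notch2* (3.95 ± 0.86, adjusted p = 0.0128) were higher, *Dll4* (-5.62 ± 1.196, adjusted p = 0.0102) and *Dll1* were lower, *Dll1* on a single count. The *Dll4* call was lost with thinned cells (-3.72). In cholangiocytes 2 were called (11.5% of all genes): *Notch2* was higher (4.20 ± 0.89, adjusted p = 0.00678) and *Heyl* lower (-4.23 ± 1.23, adjusted p = 0.0378). The *Notch2* calls in mural cells and in cholangiocytes both draw on the near absence of its counts from endothelium. In fibroblasts 2 were called (8.09% of all genes): *Heyl* was higher (2.95 ± 0.70, adjusted p = 0.0173) and *Notch1* lower (-2.16 ± 0.56, adjusted p = 0.0283). The *Heyl* levels of #m1 and #m4 nonetheless lay below those of both smooth muscle populations in either pool, and this call was lost when sums of under 10 cells were left out. The *Notch1* call in fibroblasts (-1.92) and the *Heyl* call in cholangiocytes (-4.16) were lost with sums per plate, the latter also with the sex pool as a block (-4.01) and with thinned cells (-3.24). Fibroblasts #m8 and #m10, which share the portal fibroblast annotation with #m1, had male cells only and were not part of this fit. Calls were also gained. In mural cells these were *Notch1* higher (DESeq2, no filter, thinned cells), *Notch4* lower (DESeq2, at least 10 cells) and *Hey1* higher (no filter, at least 10 cells, sums per plate). In cholangiocytes they were *Dll1* higher (DESeq2), *Hey1* lower (no filter) and *Notch1* lower (at least 10 cells). In fibroblasts, beside *Jag1*, they were *Dll4* lower (DESeq2, no filter, thinned cells), *Jag2* lower (DESeq2) and *Notch3* higher (no filter, sums per plate).

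Compared per kilobase of exon, both pools together, the leading ligand changed with the cell kind. *Jag1* made up 86.9% of the summed ligand level in cholangiocytes, 96.9% in #m2c, nearly all of it in #m8c and 89.1% in #m1, whereas *Dll4* made up 68.8% in #e2c and 83.9% in #e5c. *Notch2* led the receptors of cholangiocytes with 72.0%, *Notch1* those of #e2c with 88.0% and *Notch3* those of #m2c and #m8c with 84.6% and 88.7%. *Heyl* led the targets in both smooth muscle populations (93.7% and 90.6%), and *Hey1* in #e2c and #e5c (93.5% and 99.9%), where the #e5c value rests on 3 male cells and the female pool held 0 counts of either target.

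With senders and receivers counted where a gene reached 10 CPM in both pools, *Jag1* had 5 sending populations among the 7 (#p2, #e2c, #m2c, #m8c and #m1), *Dll4* had 2 (#e2c and #e5c), and *Dll1* (#e2c) and *Jag2* (#e5c) had 1 each. *Notch1* had 6 receiving populations, all but #m4. *Notch2* had 5, all but the 2 endothelial ones, *Notch3* had 3 (#m2c, #m8c and #m1) and *Notch4* had 1 (#e2c). Of 49 ordered pairs of sender and receiver, 30 held *Jag1* with *Notch1*, 25 *Jag1* with *Notch2* and 15 *Jag1* with *Notch3*. *Dll4* met *Notch1* in 12 pairs, *Notch2* in 10 and *Notch3* in 6. Sender and receiver were the same population in 5 of the 30 pairs of *Jag1* with *Notch1*, in 4 of the 25 of *Jag1* with *Notch2*, and in 0 of the pairs of *Dll4* with *Notch2* or *Notch3*. The female #e5c levels of *Dll4* and *Notch1* in these counts rest mostly on 1 cell each. The paper found no *Sema3g*, a marker of arterial endothelium, and proposes that hepatic artery endothelium may not have been captured. Ligand levels of those cells would then be missing from these counts of senders. Also outside the 7 were #m9c and #m15c, which the paper proposes to lie at portal as well as central veins.

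Within single cells, thinned to 50000 counts each, detection of ligand and receptor together was counted in each pool. In male cholangiocytes *Notch2* was detected in 51.0% of the cells with *Jag1* and in 43.8% of the cells without it, and in female cholangiocytes in 66.7% and 58.3%. In male #m8c cells *Notch3* was detected in 94.7% of cells with *Jag1* and 90.9% of cells without, and in female #m8c cells in 8 of 8 and 3 of 4. In #m2c the same shares were 70.3% and 62.2% in male cells and 93.75% and 93.3% in female cells. In the sinusoidal population #e5 *Notch4* was detected in 30.4% of male cells with *Dll4* and 22.2% of those without, and in female cells in 9 of 20 and 1 of 10. In #e2c, *Jag1* was found in 74.4% of male cells with *Dll4* and in 34.8% of those without, but in female cells in 69.0% and 72.7%, so that this difference was seen in 1 pool only. *Notch1* was found in 84.6% of male #e2c cells with *Dll4* and 82.6% of those without, but in 75.9% and 90.9% of female cells, so the direction differed between the pools.

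**Figure D3:**
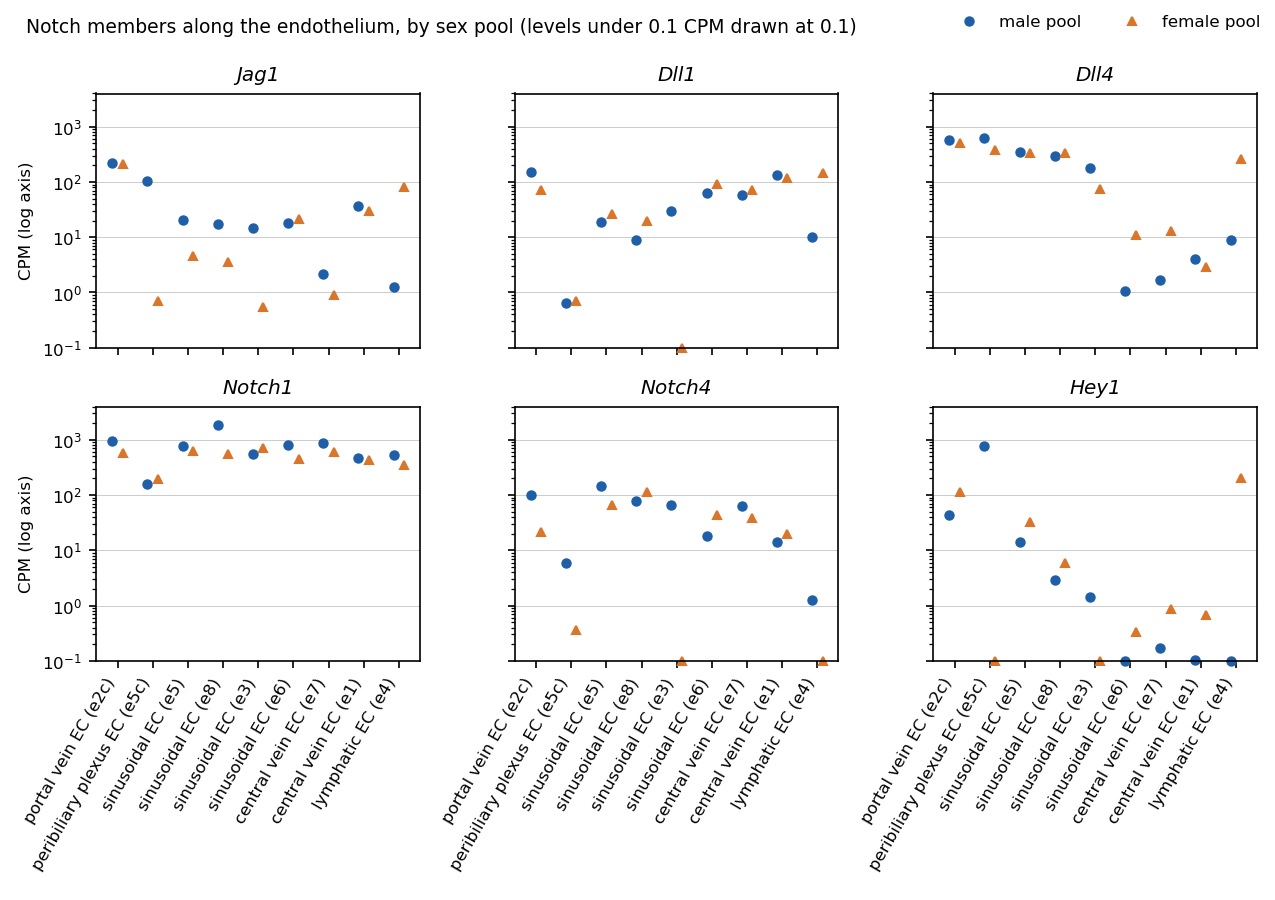
Levels of 6 Notch genes in the 9 endothelial populations, ordered from the portal vein through the sinusoids to the central vein and the lymphatics, as CPM on a log axis by sex pool. *Dll4* levels in #e6 lie below those in #e3 while *Dll1* is higher in #e6, #e7 and #e1, and the *Notch1* pools outside #e5c run from 344 to 1820 CPM.

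Along the vessels of the lobule both Delta-like ligands were high in the portal vein, and beyond the sinusoids only *Dll1* had high levels again. *Dll4* had 576 and 510 CPM in #e2c, 349 and 331 CPM in the sinusoidal population #e5, 295 and 338 CPM in #e8 and 183 and 74.1 CPM in #e3. The last sinusoidal population (#e6) and the central vein populations #e7 and #e1 had 1.07 and 11.2, 1.69 and 13.1, and 3.95 and 2.91 CPM, so that #e6 went with the central vein. *Dll1* in turn had 18.6 and 26.1 CPM in #e5, 9.07 and 19.7 CPM in #e8, 29.4 and 0 CPM in #e3, 64.3 and 92.0 CPM in #e6, 58.6 and 71.6 CPM in #e7 and 132 and 117 CPM in #e1. Both pools of #e6, #e7 and #e1 lay above all pools of the other sinusoidal populations, and those of #e1 overlapped the #e2c pools. In #e7, however, 1 female cell held 57.3% of the *Dll1* counts, 1070 of the 1174 in its pool, and the female level of 71.6 CPM rests on it. Per kilobase, *Dll1* made up 78.0%, 86.6% and 81.6% of the ligand level in #e6, #e7 and #e1, against 92.0% *Dll4* in #e5, and the #e7 share includes that 1 cell.

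In the test of central vein (#e1 and #e7) against sinusoidal endothelium (#e3, #e5, #e6 and #e8), 1 member was called, where 1.11% of 17793 genes were. *Dll4* was lower (log2 fold change -4.03 ± 0.88, adjusted p = 0.0289), although #e6 with its low level counted on the sinusoidal side. *Dll1* had 2.07 ± 0.89 (adjusted p = 0.315) and did not pass, but did without sums of under 10 cells (1.85).

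In the comparison of portal vein (#e2c) with sinusoidal endothelium none of the 8 members tested was called by edgeR (0.821% of all genes), with 4 at an unadjusted p below 0.05 and 1 called by DESeq2 (*Jag2*). Those 4 were *Hey1* (log2 fold change 5.20 ± 1.48, adjusted p = 0.152), *Jag1* (4.16 ± 1.23, adjusted p = 0.176), *Dll4* (2.49 ± 0.80, adjusted p = 0.245) and *Jag2* (7.45 ± 1.74, adjusted p = 0.0589). All 4 were called higher by edgeR with no filter on low counts (5.18, 4.15, 2.50 and 7.51) and with sums per plate (5.07, 3.62, 2.48 and 7.80), *Hey1* (5.05) and *Jag1* (3.96) without sums of under 10 cells, and *Jag2* (6.76) with thinned cells. The pools of *Jag1* (218 and 209 CPM) nevertheless lay above all 8 sinusoidal pools, which ran from 0.54 to 21.4 CPM, and those of *Dll4* lay above the highest sinusoidal pool at 349 CPM. *Hey1* at 44.0 and 112 CPM lay above the sinusoidal maximum of 32.1 CPM. Such separation of pools is a description, since clustering used the same cells. *Notch3* and *Heyl* were not tested, with 2 and 269 counts in #e2c, the latter from 1 cell to 98.5%. With no filter on low counts 1 of these 2 was called as well.

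Between the peribiliary plexus (#e5c) and the portal vein none of the 8 tested members was called by edgeR (1.57% of all genes), with 2 at an unadjusted p below 0.05 and 1 called by DESeq2 (*Dll1*). The fitted log2 value of *Dll1* was -7.10 ± 2.05 (adjusted p = 0.0876), on 3 counts in #e5c, and *Notch1* -1.95 ± 0.56 (adjusted p = 0.0856). *Dll4* differed by 0.00 ± 1.15, with a 95% interval of -2.43 to 2.43, so that a several-fold difference could not be seen with 14 cells. *Notch1* passed here with thinned cells (-2.70). Its pools ran from 434 to 1820 CPM in #e2c, #e5, #e8, #e3, #e6, #e7 and #e1 with 1820 and 565 CPM in #e8 alone. *Notch4* was highest in the sinusoidal populations #e5 (143 and 66.9 CPM) and #e8 (79.5 and 115 CPM), and the #e2c pools given above overlapped both. In lymphatic endothelium (#e4, 9 and 13 cells) all counts of *Jag2* and *Hey1*, 96.9% of those of *Jag1* and 95.6% of those of *Dll1* came from 1 cell each.

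**Figure D4:**
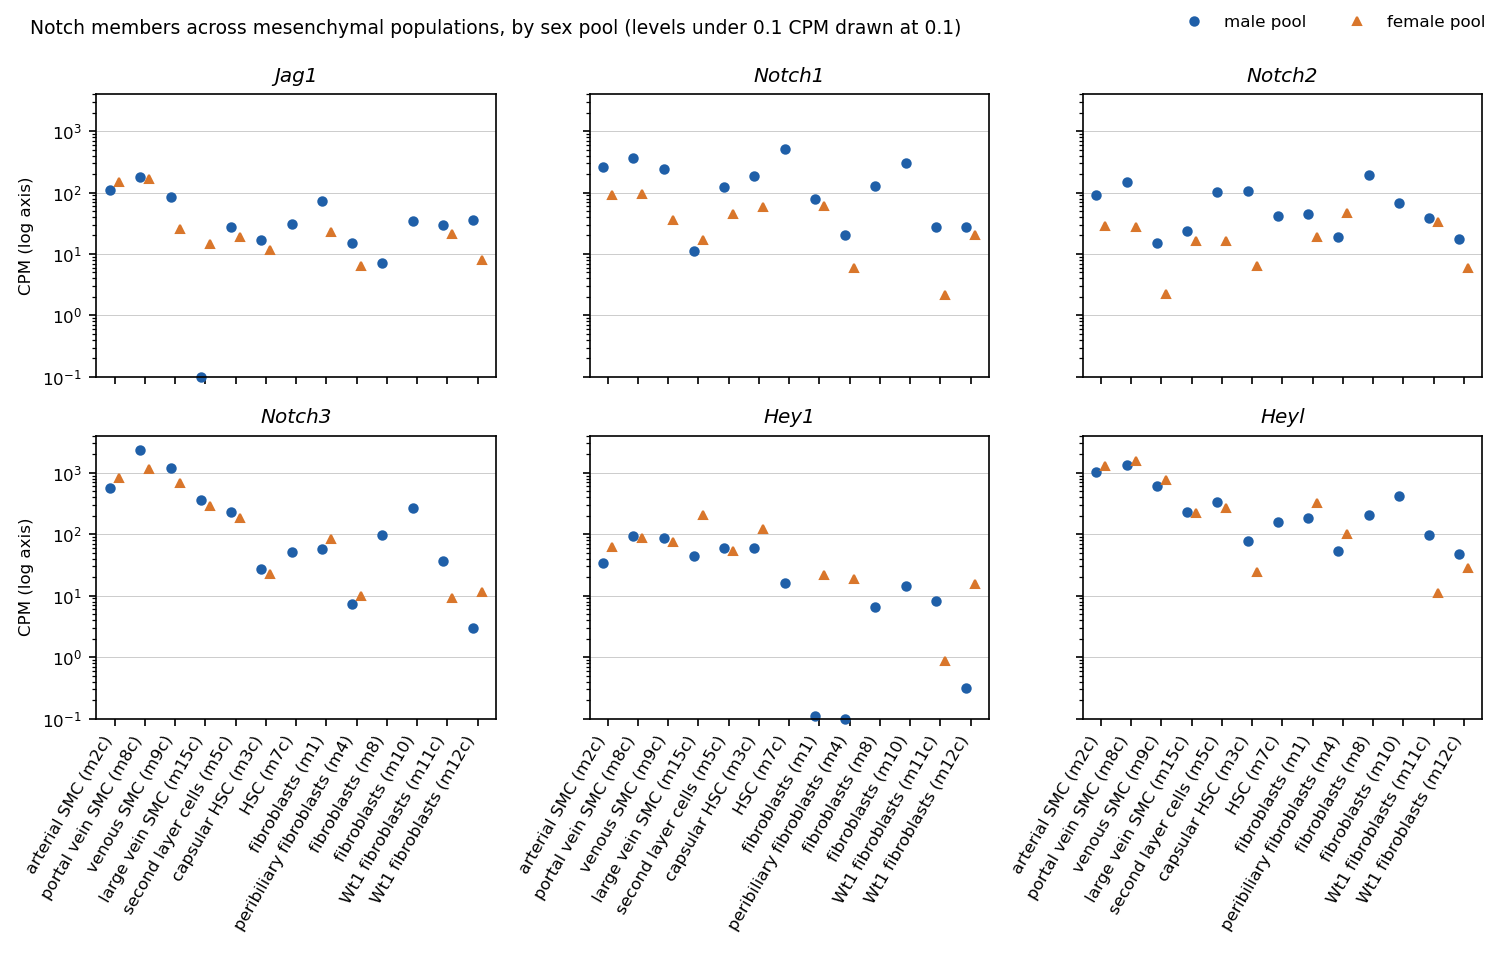
Levels of 6 Notch genes in 13 mesenchymal populations, as CPM on a log axis by sex pool, with a point for each pool of at least 5 cells. *Notch3* and *Heyl* are both highest in #m8c, while *Notch3* is at 726 CPM in #m2c and 994 CPM in #m9c and *Heyl* at 1187 and 670 CPM with both pools together, and *Notch3* of peribiliary fibroblasts (#m4) lies below that of the portal fibroblasts #m1, #m8 and #m10.

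In the mesenchyme, *Notch3* and *Heyl* had their highest levels in smooth muscle, but the levels of some fibroblasts lay among those of the other mural populations. *Notch3* had 1203 and 684 CPM in venous smooth muscle (#m9c), 354 and 286 CPM in #m15c, which the deposited annotation calls elaSMC, and 234 and 181 CPM in the second layer cells (#m5c). *Heyl* had 608 and 762 CPM, 230 and 220 CPM and 337 and 268 CPM in the same 3 populations. Among fibroblasts, #m10 (male pool) had 263 CPM of *Notch3*, above #m5c, and 417 CPM of *Heyl*, above both #m5c and #m15c, and *Heyl* in #m1 (183 and 328 CPM) overlapped both. In #m9c, #m15c and #m5c both genes stood below #m8c in every pool except that the male *Notch3* pool of #m9c reached the female pool of #m8c. Against all fibroblasts (#m1, #m4, #m8, #m10, #m11c and #m12c), 2 members were called in mural cells, where 3.87% of 21342 genes were: *Notch3* (log2 fold change 4.35 ± 0.35, adjusted p = 3.31e-08) and *Heyl* (2.48 ± 0.35, adjusted p = 7.04e-05). The *Heyl* call was lost with sums per plate (2.40). *Hey1* had 3.26 ± 0.95 (adjusted p = 0.0559), and it was called higher with DESeq2 (3.26), with no filter on low counts (3.25), without sums of under 10 cells (4.42) and with thinned cells (2.75). For *Jag1* the fit gave 1.41 ± 0.64 (adjusted p = 0.33), with -1.30 in the male and 2.18 in the female pools, and the male pool of #m15c, 7 cells, held none.

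Among smooth muscle populations no member separated arterial (#m2c) from venous cells (#m9c and #m15c) in edgeR as reported (1.13% of all genes called). There 6 had an unadjusted p below 0.05, DESeq2 called *Notch4*, and edgeR with no filter on low counts called *Heyl* (1.70). None separated portal vein smooth muscle (#m8c) from them either (0.0984% of all genes called). With no filter *Notch3* (1.79) and *Heyl* (1.96) were called, and DESeq2 called *Jag1*. The paper proposes that #m9c and #m15c cells lie at portal as well as central veins, so this does not set portal against other veins. Both percentages are of adjusted calls and are no background for counts at an unadjusted p. For #m8c 5 members had an unadjusted p below 0.05. Those 5 all had higher values in #m8c: *Jag1* (log2 fold change 3.04 ± 1.08, adjusted p = 0.326), *Notch2* (2.76 ± 1.10, adjusted p = 0.417), *Notch1* (2.38 ± 0.88, adjusted p = 0.356), *Heyl* (1.88 ± 0.56, adjusted p = 0.229) and *Notch3* (1.69 ± 0.50, adjusted p = 0.224). *Jag1* was at 178 and 168 CPM in #m8c against 84.7 and 25.1 CPM in #m9c and 0 and 14.5 CPM in #m15c, with no overlap. *Hey1* was at 44.1 and 206 CPM in #m15c and 92.8 and 85.9 CPM in #m8c, so the pools overlapped.

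Hepatic stellate cells, the vitamin A storing cells of the sinusoid, were compared as #m3c (capsular) and #m7c. Here 4 members were called against mural cells, where 2.25% of all genes were. *Notch3* (log2 fold change -4.42 ± 0.60, adjusted p = 0.000144) and *Heyl* (-2.96 ± 0.60, adjusted p = 0.00747) were lower, and *Dll1* (7.43 ± 1.59, adjusted p = 0.0123) and *Dll4* (7.72 ± 1.85, adjusted p = 0.0292) higher. *Notch3* was at 26.9 and 22.3 CPM in #m3c, below every mural pool. The 2 ligand values rest on small numbers, with *Dll1* in 3.54% of #m3c cells and 4.17% of #m7c cells, and *Dll4* in 4.42% and 8.33%, and #m7c had only 4 female cells. For *Dll1* 1 cell held 56.3% of the counts in #m3c and 1 cell 99.1% in #m7c. For *Dll4* these shares were 97.8% and 39.1%. *Dll4* lost its call with thinned cells, without sums of under 10 cells and with the sex pool as a block (adjusted p = 0.0808), and *Dll1* with sums per plate. *Notch1* reached 518 CPM in the male pool of #m7c, the highest mesenchymal level, without passing the test (1.44 ± 0.69, adjusted p = 0.461).

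In peribiliary fibroblasts (#m4) *Notch3* was the member called against fibroblasts #m1, #m8 and #m10. The Wt1 fibroblasts #m11c and #m12c were not part of this reference, and *Notch3* in them, at 37.0 and 9.13 CPM and at 3.01 and 11.4 CPM, was in part as low as in #m4. At 7.45 and 9.86 CPM it lay under #m1 (56.6 and 84.6 CPM), #m8 (95.3 CPM, male pool) and #m10 (263 CPM, male pool), with a log2 fold change of -3.91 ± 0.65 (edgeR, adjusted p = 0.0171). It was 1 of 10 members, where 0.0469% of all genes were called. That call was lost when the 9 female #m4 cells were left out with the other sums of under 10 cells (-4.11) and with sums per plate (-4.34). *Jag1*, at 15.1 and 6.27 CPM, was not below the 7.25 CPM of #m8 in the male pool. *Notch1* (-3.46 ± 1.10, adjusted p = 0.815) and *Heyl* (-1.97 ± 0.65, adjusted p = 0.821) had negative values too and did not pass, but both did with no filter on low counts and *Notch1* also with DESeq2.

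**Figure D5:**
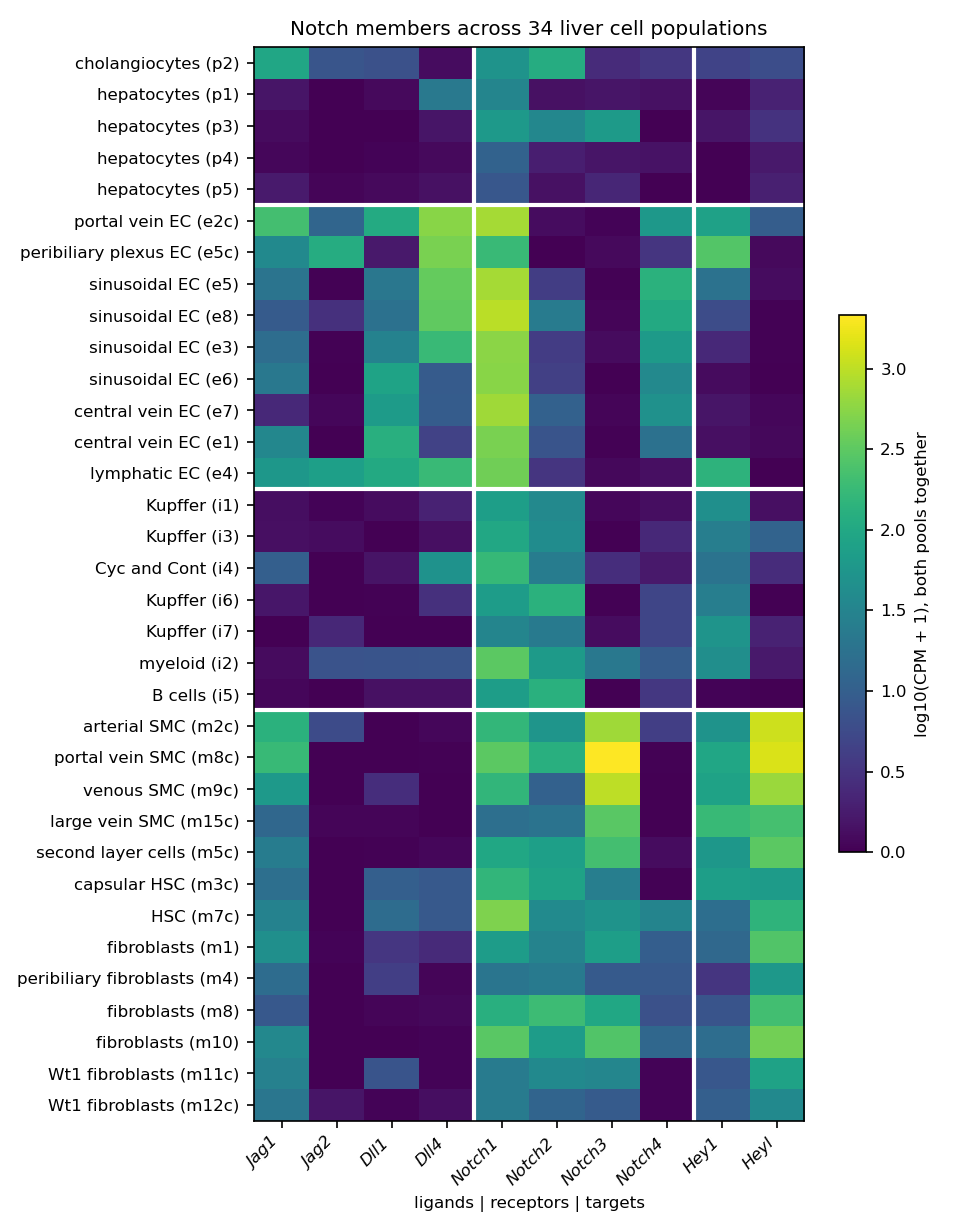
Heat map of the 10 Notch genes (columns, ligands then receptors then targets) in the 34 populations of at least 10 cells (rows), as log10 of CPM plus 1 with both pools together. Ligands other than *Jag1* are bright mainly in endothelial rows, *Notch3* and *Heyl* in mural and some fibroblast rows, and *Notch1* in nearly all rows.

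Cholangiocytes were compared with hepatocytes, the other epithelial cells. Here 4 of the 10 members were called and all 4 were higher, where 37.3% of 16694 genes were called in either direction and 28.6% were higher, so the count is not far from that of all genes. *Jag1* was at 94.1 and 82.0 CPM in #p2 against 15 counts in all hepatocytes (log2 fold change 7.16 ± 0.97, adjusted p = 5.01e-06), and *Notch2* at 117 and 85.4 CPM (5.26 ± 0.82, adjusted p = 2.61e-05). *Dll1* (5.70 ± 1.93, adjusted p = 0.0232) and *Jag2* (adjusted p = 0.00952) rested on few cells and lost their calls with DESeq2 and with sums per plate. *Jag2* had 413 counts in cholangiocytes, 50.6% of them in 1 cell, and 1 in hepatocytes, a ratio of summed CPM of 237 with a counting interval of 42.3 to 9385. Hepatocyte sums came from the male pool alone, as female hepatocyte clusters had at most 2 cells. The p-values of this comparison thus hold no spread between hepatocyte pools and rest on that between the 2 cholangiocyte pools.

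Ligand levels were low in the immune class as a whole. *Jag1* had 0.37 and 0.99 CPM, and *Dll4* 2.76 and 5.06 CPM, with 560 of the 782 *Dll4* counts in cluster #i4. That cluster held 24 cells annotated as Cyc and 24 annotated as Cont, and endothelial markers summed to 2092 CPM in it. Kupffer cells, the resident macrophages, held *Notch1*, *Notch2* and *Hey1*. *Hey1* was at 52.1 CPM in #i7, where 28.0% of cells (21.3 to 35.6) held a count, and at 47.8 and 0 CPM in #i1. In the myeloid population #i2, 2 members were called against Kupffer cells (2.87% of all genes): *Dll1* (log2 fold change 6.80 ± 1.94, adjusted p = 0.0241) and *Notch3* (7.91 ± 2.33, adjusted p = 0.0312). The arm of #i2 is a single male sum, set against Kupffer sums of which #i6 and #i7 are female only. In the authors' finer clustering the 16 male cells of #i7c held 140 counts of *Dll1* and 460 of *Notch3*, beside 143 and 462 in #i2, and #i2c held 4 and 2. The finer clusters do not lie wholly inside #i2. These 16 cells also held *Dll4* at 20.9 CPM, *Dll1* at 21.7 CPM and *Jag2* at 17.7 CPM, in 3, 2 and 2 cells. Both calls thus rest on few cells, with *Dll1* in 7.69% and *Notch3* in 9.23% of the 65 cells, and both calls were lost with DESeq2, without sums of under 10 cells and with the sex pool as a block. In B cells (#i5, male pool) no member was called by edgeR against Kupffer cells (4.78% of all genes), with 0 at an unadjusted p below 0.05 and 1 called by DESeq2 (*Hey1*, with 1 count in #i5).

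Whole classes were compared next, each with the mean of the other 3, and the members called were in part others than at the portal tract. The 2 pools of a class held different mixes of cells, so class levels and their spread also depend on what was sorted. Cholangiocytes were 157 of 358 male and 37 of 39 female epithelial cells, and #e3 had 230 male and 6 female cells. Of the 5816 epithelial *Jag1* counts 5801 were from #p2. Endothelial cells had 6 members called (8.28% of 24046 genes): *Dll4* (log2 fold change 6.27 ± 0.47, adjusted p = 0.000651), *Dll1* (4.74 ± 0.92, adjusted p = 0.0195), *Notch4* (4.05 ± 0.51, adjusted p = 0.0036) and *Notch1* (2.83 ± 0.52, adjusted p = 0.016) were higher, *Notch2* (-3.66 ± 0.90, adjusted p = 0.0443) and *Notch3* (-7.69 ± 1.81, adjusted p = 0.0383) lower. The *Notch2* call was lost with sums per plate (-2.17) and the *Notch3* call without the 26 cells annotated as Cont (-7.70). Mesenchymal cells had 5 (11.8% of all genes). *Notch3* (8.05 ± 1.15, adjusted p = 0.00339), *Heyl* (8.08 ± 0.94, adjusted p = 0.00147), *Jag1* (2.19 ± 0.43, adjusted p = 0.0131) and *Hey1* (1.82 ± 0.49, adjusted p = 0.0458) were higher and *Dll4* lower (-3.26 ± 0.60, adjusted p = 0.0106).

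Epithelial cells also had 5 (12.4% of all genes), with *Jag1* higher (2.49 ± 0.43, adjusted p = 0.00769) and *Hey1* (-3.98 ± 0.69, adjusted p = 0.00784), *Notch4* (-2.70 ± 0.68, adjusted p = 0.0358), *Notch1* (-2.51 ± 0.68, adjusted p = 0.048) and *Dll4* (-2.15 ± 0.57, adjusted p = 0.0442) lower. Immune cells had 2 (13.2% of all genes), *Jag1* lower (-6.18 ± 0.69, adjusted p = 0.0011) and *Hey1* higher (1.81 ± 0.49, adjusted p = 0.0447). *Jag1* was thus called higher in 2 classes, in which its levels were 57.6 and 80.0 CPM (epithelial) and 49.8 and 60.9 CPM (mesenchymal), close to the 36.5 and 45.3 CPM of endothelial cells, with the immune level near 0 in each reference. The calls of *Hey1* in immune and mesenchymal cells were lost with the sex pool as a block and with sums per plate, the immune one also with thinned cells. Those of *Dll4* in mesenchymal cells were lost with sums per plate and without the Cont cells, and in epithelial cells with the block, with thinned cells and without the Cont cells. In epithelial cells *Notch4* lost its call with thinned cells and with sums per plate, and *Notch1* without the Cont cells. Calls were gained by *Heyl*, lower in the endothelial class with DESeq2, with no filter, with thinned cells and with sums per plate, lower in the immune class with DESeq2, with no filter and with sums per plate, and lower in the epithelial class with no filter. *Jag1* was called higher in the endothelial class with DESeq2 and without the Cont cells, *Dll1* lower in the immune class with DESeq2 and with no filter, and *Notch2* higher in the epithelial class with no filter.

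A further 46 genes of the pathway were counted by role: other ligands, enzymes that process ligands and receptors, inhibitors and ubiquitin ligases, nuclear partners and other targets. In portal mural cells 6 of the 42 tested were higher and 1 lower, with a median log2 fold change of 0.13 beside 0.25 over all genes, of which 5.98% were higher and 1.12% lower. In portal endothelium 7 were higher and 11 lower (medians -0.06 and -1.07), beside 4.57% and 13.6% of all genes. The direction of that background depends on the processing, since 25.15% of the 3384 endothelial calls over all genes were higher as reported, 53.7% of 2031 without sums of under 10 cells (which shifted the median of all genes by 0.514 on the log2 scale) and 68.2% of 906 with sums per plate (0.256). In cholangiocytes 1 was higher and 3 were lower (0.00 and 0.37), beside 9.66% and 1.88% of all genes, and in fibroblasts 5 were higher and 1 lower (0.10 and 0.33), beside 7.35% and 0.736%. None of the 7 nuclear partners, *Rbpj* among them, was called in mural cells, fibroblasts or cholangiocytes, and 1 was lower in endothelium. Against hepatocytes, 14 of 39 were higher and 3 lower in cholangiocytes (medians 1.75 and 1.38), beside 28.6% and 8.67% of all genes.

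Single genes of that list showed which targets went with which population. *Hey2*, another Hey repressor, was at 170 and 117 CPM in #m8c and 120 and 125 CPM in #m2c, at 6.29 and 23.97 CPM in #m1 and at 0 in #e2c and #e5c, and it was called higher in mural cells (log2 fold change 10.66 ± 1.003, adjusted p = 6.33e-05). Portal fibroblasts also had it called higher by edgeR (3.33 ± 0.90, adjusted p = 0.0415), which was lost with the sex pool as a block (adjusted p = 0.0655). *Gja4*, a gap junction gene of arteries, was at 701 and 1062 CPM in #e2c, 712 and 1172 CPM in #m8c and 603 and 979 CPM in #m2c against 0.59 and 3.20 CPM in #p2, and was called higher in mural cells (4.57 ± 0.68, adjusted p = 0.000768). *Nrarp*, a feedback inhibitor of the pathway, was at 180 and 157 CPM in #e2c, 188 and 129 CPM in #m2c and 2.61 and 0.80 CPM in #p2.

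*Sox9*, a transcription factor of biliary cells that Notch can switch on, was at 741 and 705 CPM in cholangiocytes and was called higher there (log2 fold change 8.80 ± 1.02, adjusted p = 9.29e-05). *Mfng*, a glycosyltransferase that alters which ligands a receptor binds, was at 56.9 and 90.6 CPM in #e2c and 131 and 119 CPM in #e5c, against at most 3.43 CPM in any pool of the other portal tract populations, and was called higher in endothelium (8.53 ± 1.27, adjusted p = 0.000699). *Dtx4*, a Deltex ubiquitin ligase, was at 0.07 and 0 CPM in #e2c and 0 in #e5c, and at 103 and 119 CPM in #m8c. It was called higher by edgeR in portal fibroblasts (4.46 ± 0.96, adjusted p = 0.0114). In mural cells against all fibroblasts it was called lower (-2.39 ± 0.62, adjusted p = 0.0263).

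The letters GTGGGAA, the core of the sequence that RBPJ binds, were searched on both strands of a window of 300 bases per start site (250 before, 50 after) in RefSeq's annotation of GRCm38.p6. They occurred in 6.38% of 32851 windows and in 0 of the 9 windows of the 8 members with a window, which did not include *Hey1* and *Heyl*. The 36 other pathway genes with a window had 48 windows, and 7 of these windows, of 7 genes, held the letters. The matches of *Hey2*, the target that followed *Heyl*, and of *Lfng*, a relative of *Mfng*, are given here with 10 bases on each side and the motif, in either orientation, in capitals. A match is a description and not a binding site.
Hey2 at chr10:30842974-30843000 (minus strand): cgcggtggcaTTCCCACgcctctgcca
Hey2 at chr10:30842771-30842797 (minus strand): gggctgcagcGTGGGAAagaacctcca
Lfng at chr5:140607222-140607248 (plus strand): cgtatcccacGTGGGAAggagagatct
The first match of *Hey2* begins 207 bases before the start site and the second 4 bases before it, and that of *Lfng* 109 bases before. *Lfng* was at 8.37 and 7.34 CPM in #e2c and at 54.8 and 37.7 CPM in the central vein population #e1.

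Over the 34 populations, which share plates, pools and sequencing depth, *Notch3* and *Heyl* had the highest correlation among member pairs (Pearson r = 0.91 of log2 CPM plus 1), and *Dll4* and *Notch2* the lowest (r = -0.56). The genes whose pattern was most like that of *Heyl*, among 16828 genes, were *Pde3a* (r = 0.97), *Adcy5* and *Mark1* (both r = 0.96). Those most like *Notch3* were its antisense neighbour *Gm17276* (r = 0.94), *Tagln* and *Rasl12* (both r = 0.93). *Jag1* was closest to *Mageh1* (r = 0.89), *Mfge8* (0.87) and *Lamc1* (0.86), and *Dll4* to *Tmem88* (0.87), *Ccm2l* (0.87) and its antisense neighbour *Gm14207* (0.86). These lists changed with Spearman's rho in place of Pearson's r: the 3 closest genes were then *Hey2*, *Adcy5* and *Ndufa4l2* for *Heyl*, *Myh11*, *Tpm2* and *Gm17276* for *Notch3*, *Aplp2*, *Mageh1* and *Casp12* for *Jag1*, and *Gpr182*, *Cyyr1* and *Egfl7* for *Dll4*, with none shared.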

How the data were processed

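Single liver cells were sorted into plates and sequenced by Smart-seq2 (single-end reads). The deposited table holds raw counts per gene and cell, made by the authors; the submitters' processing notes name bcl2fastq, Bowtie, Bowtie2, Subread, featureCounts and Seurat and the builds GRCm38 and mm10, with no version used here. The authors removed low-quality cells and putative doublets before deposit and clustered each class with pagoda2. Those clusters and the deposited annotation were used as given.

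The 92 spike-in rows were left out. Counts were summed per population and sex pool, keeping sums of at least 5 cells, and tested with edgeR 4.0.16 (quasi-likelihood, TMM, filterByExpr, limma 3.58.1, R 4.3.3), with Benjamini-Hochberg adjustment over all genes tested. The study tested single cells; sums per pool were used here because cells are not replicates. Python 3.11.15, pandas 2.3.3, numpy 2.4.6 and scipy 1.17.1 served for the rest, and DESeq2 1.42.0 as an alternative. The test was tested on simulated data. Shares of cells carry exact (Clopper-Pearson) 95% intervals, and the limit for a share of 0 uses 3 counts. Reads carry no molecular identifiers, so intervals and limits cover counting error only. Detection within cells was compared after thinning to 50000 counts, which left out 13 cells. No cell name was shared between pools.

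By rule, all members were named, with up to 5 called pathway genes of largest absolute change per comparison and the 3 genes most like each of *Jag1*, *Dll4*, *Notch3* and *Heyl*. Which of those pathway genes are described was decided after their values were seen. The members and lists were chosen with earlier results of these data known. Alternatives were DESeq2, no filter on low counts, sums of at least 10 cells, thinned cells, sums per plate, the sex pool as a block, leaving out each pool in turn, and, chosen after seeing the data, leaving out 26 cells annotated as Cont.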

Additional observations from a re-analysis of the deposited data

Results flagged for a closer look

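Several differences had opposite signs in the male and the female pools; whether the pools differed was not tested, and sex, plate and mice cannot be told apart. Values are male minus female log2 fold changes. At the portal tract, *Hey1* differed by 17.42 between the peribiliary plexus and the portal vein (4.07 in male, -13.35 in female pools), by 9.70 for portal endothelium against the other kinds (5.88 and -3.82) and by -10.45 for portal fibroblasts. *Hey1* was detected in 3 of the 14 cells of #e5c, all male, and the female pool held 0 counts, so the 17.42, the -13.35, the 9.70 and the -3.82 depend on the prior count and are no measured folds. The value for portal fibroblasts takes in the same pool of #e5c and 3 and 2 male counts in #m1 and #m4. *Dll1* differed by 5.46 for portal fibroblasts and by 11.70 for peribiliary against other fibroblasts, and *Notch2* by -3.61 in the latter comparison. The *Dll1* values depend on the prior count too, with 0 counts in the female pool of #m4.

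*Jag1* differed by -3.48 for mural cells against fibroblasts (-1.30 and 2.18) and by 3.38 for stellate against mural cells, where *Notch4* differed by 6.32. The male pool of #m15c held 0 *Jag1* counts and most mural pools held 0 of *Notch4*, so these values depend on the prior count as well. In the central vein against the sinusoids, *Jag2* differed by -3.11, with 0 counts in both male pools of the central vein, and *Notch2* by 6.54. For the epithelial class, *Notch3* differed by -5.25 (-1.18 and 4.08), where the female endothelial pool held 0 counts.

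The 5 mesenchymal cells that belong to no population used held 611 counts of *Notch3*, in 4 of the cells, 10 of *Hey1*, 8 of *Dll1* and 5 of *Notch1*. They entered no comparison.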

How the results depend on the processing

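Numbers of members called that changed by more than 1.5 times are listed, the reported number first. Smaller changes are left out, such as portal endothelium 7 to 9, portal mural cells 5 to 7 and the endothelial class 6 to 8 with DESeq2. With DESeq2: immune class 2 to 4, portal vein against sinusoids 0 to 1, peribiliary plexus against portal vein 0 to 1, mural cells against fibroblasts 2 to 4, arterial against venous muscle 0 to 1, #m8c against venous muscle 0 to 1, #m4 against other fibroblasts 1 to 2, cholangiocytes against hepatocytes 4 to 2, #i2 2 to 0, #i5 0 to 1 and portal fibroblasts 2 to 5. With no filter on low counts: immune class 2 to 4, portal vein 0 to 5, peribiliary plexus 0 to 1, arterial muscle 0 to 1, #m8c 0 to 2, #m4 1 to 3, #i2 2 to 1 and portal fibroblasts 2 to 5. With at least 10 cells per sum: portal vein 0 to 2, central vein 1 to 2, #m4 1 to 0 and #i2 2 to 0. With thinned cells: immune class 2 to 1, epithelial class 5 to 3, portal vein 0 to 1, peribiliary plexus 0 to 1, #i2 2 to 1 and portal cholangiocytes 2 to 1. With sums per plate: mesenchymal class 5 to 3, portal vein 0 to 4, mural cells 2 to 1, #m4 1 to 0, cholangiocytes against hepatocytes 4 to 2 and portal cholangiocytes 2 to 1, and *Notch3* in the epithelial class reversed from 0.30 to -3.33. Without the 26 cells annotated as Cont, the epithelial class went from 5 to 3. With the sex pool as a replicate block: immune class 2 to 1, #i2 2 to 0 and portal cholangiocytes 2 to 1. Same-sex sums share a sex and in part plates, and no label says that they share mice. Correlations of their deviations ran from -0.025 to 0.161 in mesenchymal pairs, with 23 of 45 over 0.1, and the block could not be fitted for cholangiocytes against hepatocytes. Leaving out 1 pool leaves no residual degrees of freedom, so it gave values with no test: without the male pool 74 of 149 values moved by more than the spread, and without the female pool 46 of 183. The causes were not tested. DESeq2 shifted the median of all genes by 0.365 (log2) in the peribiliary plexus comparison and by -0.209 in that of the central vein, and moved the share of higher calls from 91.1% to 50.3% for the portal vein, 84.85% to 30.6% for the central vein, 64.3% to 43.8% for the endothelial, 60.1% to 45.8% for the immune, 80.2% to 63.2% for the mesenchymal and 67.4% to 53.6% for the epithelial class, 75.4% to 48.0% for stellate cells, 57.1% to 67.9% for #m8c, 96.5% to 77.9% for #i2, 74.2% to 28.8% for #i5, and 83.7% to 62.2%, 84.25% to 66.9% and 90.9% to 74.8% for portal cholangiocytes, mural cells and fibroblasts. That share also moved with sums per plate, from 7.5% to 83.2% for the peribiliary plexus, 84.85% to 39.6% for the central vein, 75.4% to 30.8% for stellate cells, 43.1% to 5.08% for arterial muscle and 76.7% to 46.9% for cholangiocytes against hepatocytes, and with the block from 96.5% to 11.8% for #i2 (578 to 17 calls) and 74.2% to 16.6% for #i5. These are not all the shifts over 10 percentage points. Populations of few cells, above all #e5c, and genes held by 1 cell limit the precision.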
